A study of Mus musculus with 39 samples.

Results

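The transcripts of 45 cell cycle genes were followed in mouse lung fibroblasts given C1q, the recognition subunit of the first component of complement. The genes were taken by symbol and span the copying of DNA, its separation in mitosis and the cyclins and inhibitors that admit cells to the cycle. All 45 were found among the 30012 rows of the count table, and all 45 passed the filter on low counts, so each was tested. The cells came from the lungs of wild-type (WT) C57BL/6 mice and had been depleted by magnetic sorting of cells carrying CD45 (blood cells), CD31 (endothelium), EpCAM (epithelium), CD146 (mural and endothelial cells) or Ter119 (red cells). They were grown in medium with serum, passaged, kept without serum for 24 h and then given C1q. The 12 treated groups received 1, 10 or 100 µg/ml of C1q for 2, 24, 48 or 72 h, and the single untreated group is labelled as 0 h, with 3 libraries in each of the 13 groups.

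Limits of the model touch every comparison with untreated cells. The untreated libraries were taken at 0 h only, so that the effect of C1q and that of further hours in culture after serum withdrawal cannot be told apart in them. Comparisons between doses at the same time do not share this limit, but no group given buffer alone was analysed here. The labels do not state the age or sex of the mice, whether serum was returned with the C1q, or whether the 3 libraries of a group came from separate cultures, so p-values measure the spread between libraries, which may be technical. In bulk RNA, fewer cycling cells and less of a transcript in each cycling cell cannot be told apart.

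A dividing cell passes through G1, S, G2 and M phases. In G1, D-type cyclins with their kinases phosphorylate the retinoblastoma proteins, which frees E2F factors to switch on genes for replication, and the CIP/KIP inhibitors Cdkn1b (p27) and Cdkn1c (p57) hold this step back. Genes of S phase encode the loading of the MCM helicase on origins, the sliding clamp and the supply of deoxynucleotides, while genes of G2 and M phase encode cyclin B and Cdk1, the Aurora and Polo kinases, the kinetochore and the spindle, and are switched on later through Foxm1 and the MuvB complexes. Fibroblasts deprived of serum leave the cycle for a resting state in which both sets of genes are low.

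A few promoters are shown because E2F and MuvB complexes are known to act through short words in them. Promoters of 34 of the 45 genes were found in the RefSeq table of build GRCm38.p6, each reaching from 250 bases before to 50 bases after the start that the table uses; Gmnn, Mcm4, Ccnd1, Ccnd2, Ccne2, Ccna2, Foxm1, Aurkb, Kif20a, Tpx2 and Cdkn1c had no entry. Each window was searched on both strands for the E2F words TTTCCCGC, TTTGGCGC, TTTCGCGC and TTTGCCGC, for the words TTTGAA and TTCGAA of the cell cycle homology region (CHR), where MuvB complexes bind, and for CCAAT, where NF-Y binds. Mcm7, Ccnd3 and Prc1 had 2 windows each, and a gene was counted where any of its windows held the word. The whole table was counted by window instead. An E2F word stood in 7 of the 34 genes (20.6%), against 2.26% of all 32851 windows in the table. Of the 8 origin licensing and replication genes with a window, 6 held an E2F word (75.0%) and 2 held a CHR word. None of the 3 nucleotide supply genes held either. A CHR word stood in 17 of the 34 genes (50.0%), against 19.2% of all windows. It stood in 6 of 7 mitotic kinase, checkpoint and APC/C genes. The same held for 4 of 5 kinetochore, chromosome and proliferation marker genes and 3 of 3 spindle and cytokinesis genes. CCAAT stood in 27 of the 34 genes (79.4%), against 37.4% of all windows. Over the bases upstream of the start alone, E2F and CHR words stood in 14.7% and 32.4% of the 34 genes. The shares of all windows were 1.86% and 17.1%. These matches describe letters in the windows and were not tested as binding sites.

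The 150 bases before that start are given 5′ to 3′ on the gene's own strand, with every searched word in capitals. Cdc6, Mcm5 and Mcm6 are shown for the E2F words (of the pairs that overlap in Mcm5 and Mcm6, the one in Mcm5 begins upstream of the bases shown), Cdk1 for both kinds, and Mki67, Top2a and Ube2c for the CHR words among CCAAT words. The RefSeq gene positions of the same build start Cdc6 at base 98907709 of chromosome 11, upstream of the bases shown. Those bases thus lie inside the annotated gene. The same gene positions start Mcm5, Mki67 and Top2a within the bases shown.
Cdc6 (chr11:98908001-98908150, plus strand): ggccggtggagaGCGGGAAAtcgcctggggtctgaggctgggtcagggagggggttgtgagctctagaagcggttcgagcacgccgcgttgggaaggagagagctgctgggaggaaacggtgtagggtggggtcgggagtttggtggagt
Mcm5 (chr8:75109359-75109508, plus strand): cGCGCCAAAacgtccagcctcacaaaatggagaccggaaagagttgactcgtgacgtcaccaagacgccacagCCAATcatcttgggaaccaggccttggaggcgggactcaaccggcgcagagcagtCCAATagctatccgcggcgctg
Mcm6 (chr1:128359706-128359855, minus strand): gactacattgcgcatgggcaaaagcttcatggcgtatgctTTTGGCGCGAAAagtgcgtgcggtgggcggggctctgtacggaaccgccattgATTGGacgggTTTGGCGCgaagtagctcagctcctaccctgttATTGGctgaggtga
Cdk1 (chr10:69352913-69353062, minus strand): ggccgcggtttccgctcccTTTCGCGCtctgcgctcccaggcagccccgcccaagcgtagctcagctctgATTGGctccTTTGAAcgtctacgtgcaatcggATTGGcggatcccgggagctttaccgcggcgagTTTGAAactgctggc
Mki67 (chr7:135716380-135716529, minus strand): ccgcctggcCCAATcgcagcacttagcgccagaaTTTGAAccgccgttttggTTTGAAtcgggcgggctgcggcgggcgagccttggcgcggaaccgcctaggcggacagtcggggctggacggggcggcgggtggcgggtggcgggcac
Top2a (chr11:99024190-99024339, minus strand): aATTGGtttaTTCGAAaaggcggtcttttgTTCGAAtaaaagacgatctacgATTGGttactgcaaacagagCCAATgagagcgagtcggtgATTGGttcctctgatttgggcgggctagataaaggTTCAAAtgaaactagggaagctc
Ube2c (chr2:164769779-164769928, plus strand): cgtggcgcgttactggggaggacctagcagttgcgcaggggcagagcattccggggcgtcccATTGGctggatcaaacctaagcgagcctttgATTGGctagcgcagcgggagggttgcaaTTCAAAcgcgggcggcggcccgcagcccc

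Cdc6 and the Mcm5 and Mcm6 subunits of the replicative helicase act at origins, Cdk1 drives entry into mitosis, Ube2c passes ubiquitin to targets of the anaphase-promoting complex, and Top2a untangles sister DNA. In the bases shown, the E2F words of Cdc6, Mcm6 and Cdk1 lay 99 to 138 bases before the table's start, apart from a further word of Mcm6 that ended 40 bases before it. The CHR word of Ube2c lay 24 to 29 bases before the start, and that of Cdk1 nearest to the start lay 10 to 15 bases before it.

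Library totals ran from 1806106 to 3012518 counts, and levels are given as CPM, in which TMM factors make the libraries comparable. The 45 genes together made up 3944 to 4318 CPM in untreated libraries, 3341 to 3814 CPM at 2 h, 1574 to 1897 CPM at 24 h, 1016 to 1315 CPM at 48 h and 1010 to 1174 CPM at 72 h. None of 10 fibroblast markers was at 0 in any group. Their summed level was 7530 to 12100 CPM in C1q libraries from 24 h on, against 7760 to 8570 CPM in untreated libraries. The lack of zeros does not single out fibroblasts, since macrophage, mesothelial, endothelial and mural markers had none either. Markers of other cells moved over the same hours. The 12 epithelial markers summed to 103 to 144 CPM at 72 h, 176 to 233 CPM at 48 h and 248 to 355 CPM at 24 h, against 622 to 739 CPM in untreated cells, and at 100 µg/ml and 72 h 10 of 12 fell (median log2 difference -2.46). Of their defining genes, Scgb1a1 was at 0 at 1 and 100 µg/ml at 72 h. The 12 macrophage markers summed to 947 to 1620 CPM at 72 h against 267 to 292 CPM in untreated cells, and 12 of 12 rose at 100 µg/ml (median 2.12), with no marker at 0 in any group. They summed to 317 to 430 CPM at 24 h and 610 to 819 CPM at 48 h. At 72 h endothelial markers summed to 50.7 to 100 CPM against 62.5 to 72.4 CPM in untreated cells, and mural markers to 63.8 to 111 CPM against 86.3 to 102 CPM. Mesothelial markers summed to 325 to 563 CPM against 251 to 264 CPM, and lymphocyte markers to at most 3.17 CPM in any library. The part of these cells in the changes below was not tested.

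After 2 h of C1q, 4, 17 and 5 of the 45 members were called against untreated cells at 1, 10 and 100 µg/ml, and most of those were mitotic genes that were lower. At 1 µg/ml, 3 members fell (background: 1.87% of all 14419 genes were called lower) and 1 rose (4.28% higher). At 10 µg/ml, 16 fell (5.10%) and 1 rose (7.64%), and at 100 µg/ml 5 fell (2.02%) and 0 rose (3.14%). A call here means an adjusted p under 0.05 in edgeR's quasi-likelihood test over all genes. The median log2 difference of the 45 members was -0.20, -0.29 and -0.23 at 1, 10 and 100 µg/ml, against -0.02, -0.03 and -0.03 for all genes. Of the 21 mitotic members, 3, 13 and 5 fell at the 3 doses, and of the 13 replication and nucleotide supply members 0, 2 and 0 fell. At 2 h the epithelial markers summed to 547 to 586, 473 to 607 and 508 to 556 CPM at 1, 10 and 100 µg/ml, against 622 to 739 CPM in untreated cells. Endothelial markers summed to 55.9 to 59.1, 47.7 to 65.5 and 46.5 to 51.5 CPM, against 62.5 to 72.4 CPM in untreated cells. At 10 µg/ml macrophage markers summed to 216 to 226 CPM against 267 to 292 CPM. Mesothelial markers there summed to 196 to 235 CPM against 251 to 264 CPM. Fibroblast markers were higher, at 9230 to 9420 CPM against 7760 to 8570 CPM. Mural markers were higher too, at 112 to 125 CPM against 86.3 to 102 CPM. The part of all these cells in the 2 h differences was not tested.

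Aurka, the kinase that matures centrosomes and builds the spindle, was lower at every dose. Its level was 44.3, 38.1 and 52.6 CPM at 1 µg/ml, 33.6, 44.5 and 31.7 CPM at 10 µg/ml and 38.8, 49.0 and 41.6 CPM at 100 µg/ml, against 71.3, 73.1 and 60.9 CPM in untreated cells. No treated library reached the lowest untreated one. The log2 differences were -0.59 ± 0.14, -0.90 ± 0.15 and -0.66 ± 0.14 (SE; adjusted p 0.00345, 8.58e-06 and 0.00206 by edgeR).

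No other member fell at all 3 doses. At 10 µg/ml the cyclin A gene Ccna2 fell by 0.55 ± 0.11 and the kinetochore gene Cenpf by 0.67 ± 0.16 on the log2 scale. Among replication genes at that dose, Gmnn, which encodes the licensing inhibitor geminin, fell by 0.73 ± 0.20, while the fall of the origin factor Cdc6 (-0.62 ± 0.20) was no longer called without 4 of the 6 libraries, each left out in turn (untreated libraries 1 and 2 and libraries 2 and 3 at 10 µg/ml; adjusted p 0.0649 to 0.17). The count at 10 µg/ml was 12 to 16 without 1 library. Plk1, Aurkb, Bub1, Kif11, Kif20a, Birc5, Top2a and Tpx2 also lost their calls at that dose. Each was lost without 1 to 5 libraries in turn (adjusted p 0.0516 to 0.242 by edgeR). Top2a fell at 100 µg/ml (-0.54 ± 0.11), with Bub1b of the spindle checkpoint (-0.66 ± 0.15), Aurka, Ube2c and the spindle motor gene Kif11. The count at 100 µg/ml was 3 without its library 1 and that at 1 µg/ml, where Aurka, Birc5 and Cdc20 fell, was 1 without untreated library 2 or 3 and 2 without library 1 or 3 at 1 µg/ml. At 100 µg/ml the call was lost for Bub1b without its library 1 (adjusted p 0.0629), for Kif11 without untreated library 3 or its library 1 or 2 (0.128 to 0.314) and for Ube2c without untreated library 1, 2 or 3 or its library 1 or 3 (0.0526 to 0.156). DESeq2 called 1, 12 and 3 members at the 3 doses.

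The single member that rose at 2 h was Ccnd2, the cyclin D2 gene of G1. It had 162, 191 and 163 CPM at 1 µg/ml, 161, 213 and 155 CPM at 10 µg/ml and 174, 166 and 157 CPM at 100 µg/ml, against 139, 139 and 130 CPM in untreated cells, without overlap. The log2 differences were 0.34 ± 0.11, 0.37 ± 0.11 and 0.29 ± 0.11, and the adjusted p 0.0452, 0.0128 and 0.121 by edgeR. The rise at 1 µg/ml was lost without each of the 6 libraries in turn (adjusted p 0.0586 to 0.239), and that at 10 µg/ml without untreated library 3 or its own library 2 (0.0737 to 0.223).

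At 24 h nearly all members had fallen at every dose. The fall was called for 42 members at 1 µg/ml (14.3% of all genes were called lower), for 41 with 10 µg/ml (15.3%) and for 40 with 100 µg/ml (19.9%), while Cdkn1c alone rose at 1 µg/ml (10.9% of all genes were called higher) and 10 µg/ml (12.5%), and no member rose at 100 µg/ml (16.8%). The median log2 difference of the 45 members was -1.40, -1.35 and -1.53, against 0.01, 0.02 and 0.05 for all genes. All 13 replication and nucleotide supply members and all 21 mitotic members fell at each dose, with medians of -1.48, -1.48 and -1.56 in the replication set and -1.44, -1.34 and -1.61 in the mitotic set.

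Mcm5 and Rrm2 had the largest falls of the replication and nucleotide supply members at 10 µg/ml, and Mcm5 had the largest at 1 µg/ml. Mcm5 had 19, 18 and 17.8 CPM at 1 µg/ml, 15.4, 15.5 and 21.3 CPM at 10 µg/ml and 16.2, 21.6 and 20.9 CPM at 100 µg/ml, against 62.9, 76.3 and 76.6 CPM in untreated cells. Its log2 differences were -1.97 ± 0.15, -2.03 ± 0.15 and -1.87 ± 0.15 (adjusted p 1.21e-14, 8.14e-15 and 3.1e-14 by edgeR). Rrm2, the regulated subunit of the reductase that makes deoxynucleotides, had 17.6 to 23.8 CPM over the 9 libraries at 24 h (median 23.1), against 73.2, 86.6 and 92.1 CPM in untreated cells. The treated and untreated libraries of both genes lay far apart. At 1 µg/ml the smallest fall of the replication set was that of Mcm2 (-0.86 ± 0.26), which was lost without library 1 of that group (adjusted p 0.0515), and at 100 µg/ml it was that of the origin factor Cdt1 (-1.11 ± 0.21).

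Among mitotic genes at 24 h, Ccnb2 and Cenpa stood out at the lower doses by how little they fell. Ccnb2, which encodes a B-type cyclin that activates Cdk1, had 61.6, 50.9 and 51.2 CPM at 1 µg/ml, 71.6, 65.9 and 72.3 CPM at 10 µg/ml and 19.4, 20.1 and 26.5 CPM at 100 µg/ml, against 86.2, 97.9 and 86.4 CPM in untreated cells. The log2 differences from untreated cells were -0.72 ± 0.12, -0.36 ± 0.12 and -2.02 ± 0.13, and the call at 10 µg/ml was lost without untreated library 2 or library 2 of that group (adjusted p 0.0623 to 0.0689). At 100 µg/ml its fall was instead among the largest of the mitotic set, after that of Kif23 (-2.18 ± 0.20), a motor of the central spindle. Cenpa, the histone variant that marks centromeres, had 79.9, 76.8 and 62.7 CPM, 85.2, 85.2 and 94.7 CPM, and 57.4, 47.9 and 53.0 CPM at 1, 10 and 100 µg/ml, against 122, 145 and 132 CPM in untreated cells (log2 differences -0.86 ± 0.11, -0.59 ± 0.10 and -1.33 ± 0.11). Ccnb1, the other B-type cyclin gene, had 29, 29.2 and 29.2 CPM at 1 µg/ml, 29.4, 26.1 and 29 CPM at 10 µg/ml and 22.6, 20.8 and 25.8 CPM at 100 µg/ml, against 63.7, 69.5 and 69.0 CPM in untreated cells. Its levels at 1 and 10 µg/ml thus lay close together and at 100 µg/ml lay below them. The difference between 100 and 1 µg/ml was not called for Ccnb1 at this time.

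**Figure D1:**
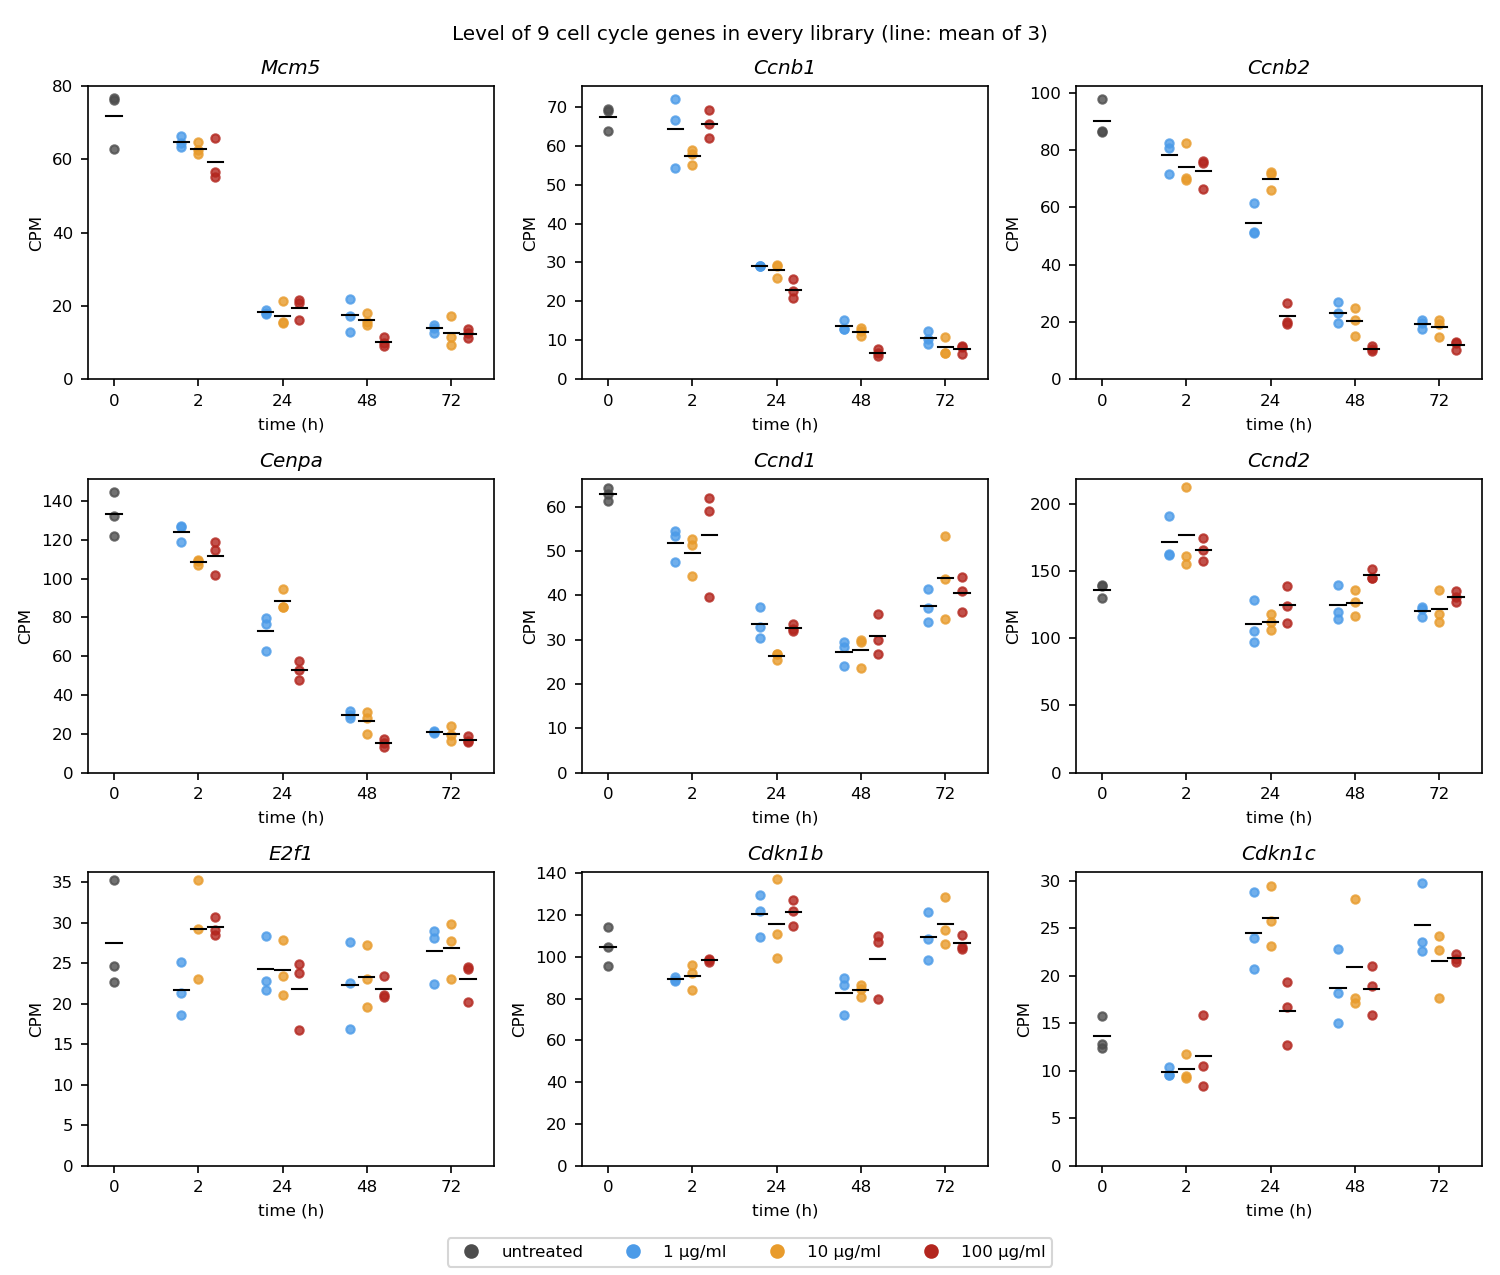
CPM after TMM scaling (vertical axis) against hours of C1q (horizontal axis) for 9 members, with 1 point per library and lines through the means of 3 libraries, coloured for untreated cells and 1, 10 and 100 µg/ml. Mcm5, Ccnb1, Ccnb2, Cenpa and Ccnd1 lay below the untreated points from 24 h on, the 100 µg/ml points of Ccnb2 at 24 h (19.4 to 26.5 CPM) lay below those of the lower doses (50.9 to 72.3 CPM), and E2f1 overlapped its untreated points at every time.

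Neighbouring times were then set against each other, which leaves the untreated libraries out. Over the mean of the 3 doses, 41 members fell between 2 and 24 h (28.6% of all genes were called lower) and 2 rose, Cdkn1b and Cdkn1c (29.3% called higher). Replication and nucleotide supply fell in 13 of 13 members with a median of -1.37 (-1.90 for Rrm2 to -0.93 for Gmnn), and mitosis in 21 of 21 with a median of -1.13 (-1.47 for Kif23 to -0.71 for Cenpa). E2f1 (-0.18 ± 0.11) and Ccnd3 (-0.12 ± 0.06) were not called.

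Between 24 and 48 h, all 21 mitotic members fell again, and 6 of the 13 replication and nucleotide supply members were called. At 48 h against 24 h, 29 members fell (12.1% of all genes) and 2 rose (12.8%), against a median of 0.00 for all genes. The mitotic members had a median of -1.23, from -1.69 ± 0.11 for Cdc20, the activator of the anaphase-promoting complex, to -0.79 for Aurkb and Kif11. Of the 13 replication and nucleotide supply members 5 fell and 1 rose, with a median of -0.23. The 5 were Rrm1 (-0.58 ± 0.08), Rrm2 (-0.41 ± 0.10), Mcm7 (-0.39 ± 0.09), Mcm5 (-0.38 ± 0.11) and Tyms (-0.23 ± 0.08), which encodes thymidylate synthase and was no longer called without 1 of 6 libraries, each left out in turn (library 1 at 1 µg/ml, 3 at 10 µg/ml or 1 at 100 µg/ml of 24 h, or library 3 at 1 µg/ml, 3 at 10 µg/ml or 1 at 100 µg/ml of 48 h; adjusted p 0.0583 to 0.113). Pcna, the sliding clamp of the replication fork, rose by 0.22 ± 0.06 on the log2 scale. The other rise was that of Ccnd2 (0.20 ± 0.06), which was lost without 1 of 6 libraries, each left out in turn (libraries 2, 1 and 2 at 1, 10 and 100 µg/ml of 24 h and 3, 2 and 1 of 48 h; adjusted p 0.0528 to 0.0769). The difference between the replication and the mitotic set was not tested.

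Cdc20 had a median of 14.4 CPM (8.16 to 19.3) over the 9 libraries at 48 h and 46.5 CPM (32.6 to 53.1) over the 9 at 24 h, without overlap. Cenpa likewise had 28 CPM (13.2 to 31.6) at 48 h and 76.7 CPM (47.9 to 94.7) at 24 h. Pcna had 118 CPM (83.0 to 143) at 48 h and 93.6 CPM (79.2 to 122) at 24 h, and the ranges overlapped. Mcm6 (-0.01 ± 0.08), Mcm2 (-0.05 ± 0.19), Mcm3 (0.09 ± 0.12), Mcm4 (-0.12 ± 0.10), Cdt1 (-0.23 ± 0.15), Gmnn (-0.29 ± 0.15) and Cdc6 (-0.31 ± 0.17) were not called between these times. Of the regulators, Ccna2 (-1.15 ± 0.09), which serves S phase and entry into mitosis, and Foxm1 (-1.02 ± 0.17), the forkhead factor of the mitotic genes, fell between 24 and 48 h, whereas the cyclin E genes Ccne1 (-0.13 ± 0.15) and Ccne2 (0.10 ± 0.17), E2f1 (-0.06 ± 0.11) and the checkpoint kinase gene Chek1 (0.09 ± 0.23) were not called.

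Between 48 and 72 h fewer calls were made. At 72 h against 48 h, 9 members fell (8.27% of all genes) and 2 rose (8.38%), with 8 of the 21 mitotic members among those that fell. The mitotic members that fell were Cenpf (-0.57 ± 0.15), Kif11 (-0.55 ± 0.15), Ube2c (-0.54 ± 0.08), Prc1 (-0.50 ± 0.12), Aurka (-0.47 ± 0.14), Tpx2 (-0.47 ± 0.10), Top2a (-0.35 ± 0.09) and Kif20a (-0.33 ± 0.12), and of the replication set Rrm2 fell (-0.49 ± 0.12). The call of Kif20a was lost without 12 of the 18 libraries, each left out in turn (adjusted p 0.0632 to 0.16), among them libraries 1 and 3 at 1 µg/ml of both times, and that of Aurka without library 3 at 100 µg/ml and 72 h (0.0538). Ccnd1 (0.50 ± 0.09) and Cdkn1b (0.32 ± 0.06) rose.

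**Figure D2:**
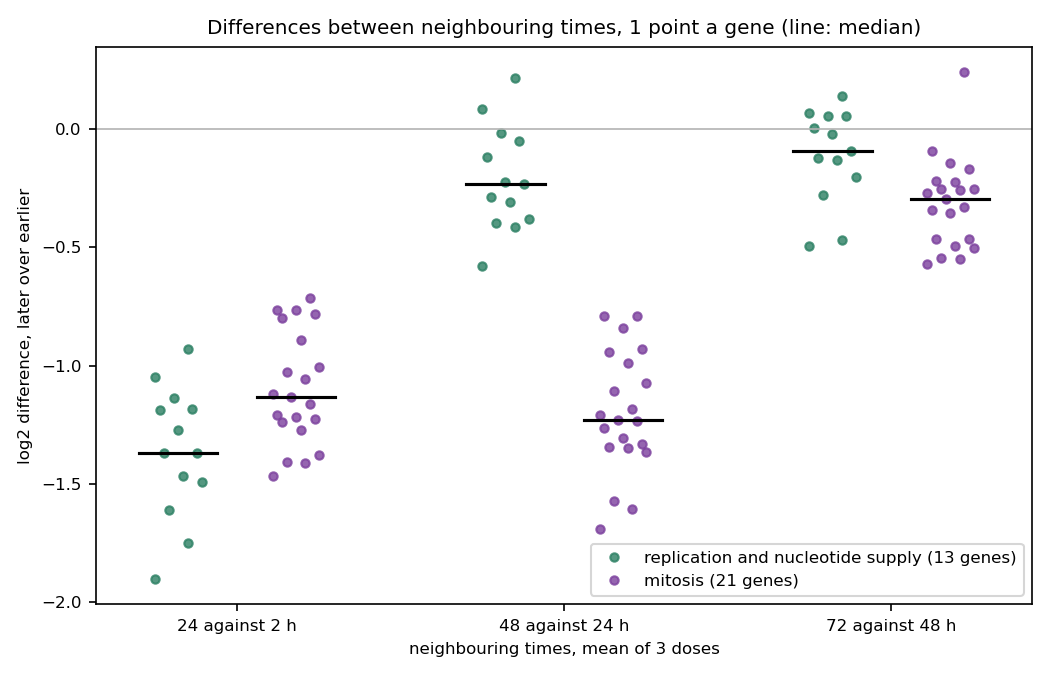
Log2 difference between neighbouring times over the mean of the 3 doses (vertical axis), with 1 point per gene and a line at the median, for the 13 replication and nucleotide supply members and the 21 mitotic members at each step (horizontal axis). The medians were -1.37 and -1.13 from 2 to 24 h, -0.23 and -1.23 from 24 to 48 h, and -0.09 and -0.29 from 48 to 72 h.

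Set against untreated cells, the later groups had lower medians for mitotic than for replication genes. At 48 h, 42, 41 and 41 members fell with 1, 10 and 100 µg/ml (17.1%, 17.5% and 20.9% of all genes) and 0, 1 and 0 rose (16%, 17% and 19.1%). At 72 h, 41, 40 and 40 were lower (20.1%, 20.6% and 23.3%) and 1 was higher at each dose, Cdkn1c (18.1%, 19.3% and 22.5%). The 21 mitotic members were lower in all 6 groups, with medians of -2.34, -2.41 and -3.05 at 48 h and -2.80, -2.86 and -3.16 at 72 h. The 13 replication and nucleotide supply members were lower in all 6 as well, with medians of -1.41, -1.58 and -1.98 at 48 h and -1.53, -1.66 and -1.90 at 72 h. All these comparisons share the 3 untreated libraries.

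Among the mitotic members the largest falls at 100 µg/ml and 72 h were those of Bub1, a kinase of the spindle checkpoint, and Ube2c. Bub1 had 1.01, 2.34 and 5.59 CPM at 100 µg/ml and 72 h, from as few as 2 counts in a library, against 36.9, 38.9 and 43 CPM in untreated cells (log2 difference -3.70 ± 0.24, adjusted p 8.82e-18 by edgeR). Ube2c had 21.8, 18.7 and 15.4 CPM against 229, 235 and 242 CPM (-3.66 ± 0.13, adjusted p 3.65e-27), which was the smallest adjusted p among members. No library at this dose and time approached an untreated one for either gene. The smallest falls of the mitotic set were those of Bub1b (-2.51 ± 0.19) and Cenpe (-2.82 ± 0.20), a kinesin that links kinetochores to microtubules. Plk1, the Polo kinase of mitotic entry and exit, had 6.08, 7.01 and 6.99 CPM at this dose and time against 64.9, 75.8 and 67.7 CPM in untreated cells (-3.35 ± 0.19).

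In the replication and nucleotide supply set at the same dose and time, Rrm2 fell furthest. It had 9.12, 10.1 and 9.32 CPM, against 86.6, 92.1 and 73.2 CPM in untreated cells (-3.12 ± 0.17, adjusted p 1.94e-20 by edgeR). Pcna had 91.7, 85.3 and 75.5 CPM against 275, 295 and 278 CPM (-1.75 ± 0.10), and Tyms, which fell least, had 23.8, 31.2 and 34 CPM against 92.2, 105 and 84.3 CPM (-1.65 ± 0.13). Each of these genes was lower in every treated library than in any untreated one. The MCM genes, which encode the subunits of the helicase ring, fell by between 1.73 (Mcm4) and 2.51 (Mcm5) on the log2 scale. Foxm1 had 6.08, 4.67 and 6.99 CPM against 45.7, 47.4 and 31.5 CPM (-2.81 ± 0.28), and Ccna2 17.7, 16.4 and 20.5 CPM against 156, 167 and 175 CPM (-3.19 ± 0.14).

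The proliferation marker gene Mki67 had 21.8, 33.1 and 29.4 CPM at 100 µg/ml and 72 h, against 194, 206 and 226 CPM in untreated cells (-2.88 ± 0.15), and Top2a had 29.4, 28.8 and 30.8 CPM against 227, 244 and 240 CPM (-3.00 ± 0.13). Cdk1 had 19.8, 14 and 22.4 CPM against 154, 173 and 146 CPM (-3.08 ± 0.14). The highest treated library lay below the lowest untreated one for all 3. Of the origin genes, Mcm2 had 5.07, 7.4 and 4.19 CPM against 22.9, 20 and 20.9 CPM (-1.90 ± 0.31), and Cdc6 5.07, 2.73 and 4.66 CPM against 20.4, 25.3 and 17 CPM (-2.34 ± 0.26). Of the E-type cyclins, Ccne1 had 11.2, 10.5 and 7.46 CPM against 24.9, 25.8 and 30.2 CPM (-1.47 ± 0.24), and Ccne2 4.56, 4.29 and 5.59 CPM against 18.8, 16.8 and 18.7 CPM (-1.92 ± 0.25). These 4 genes did not overlap between the groups either, and the share of all genes without overlap was not counted.

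**Figure D3:**
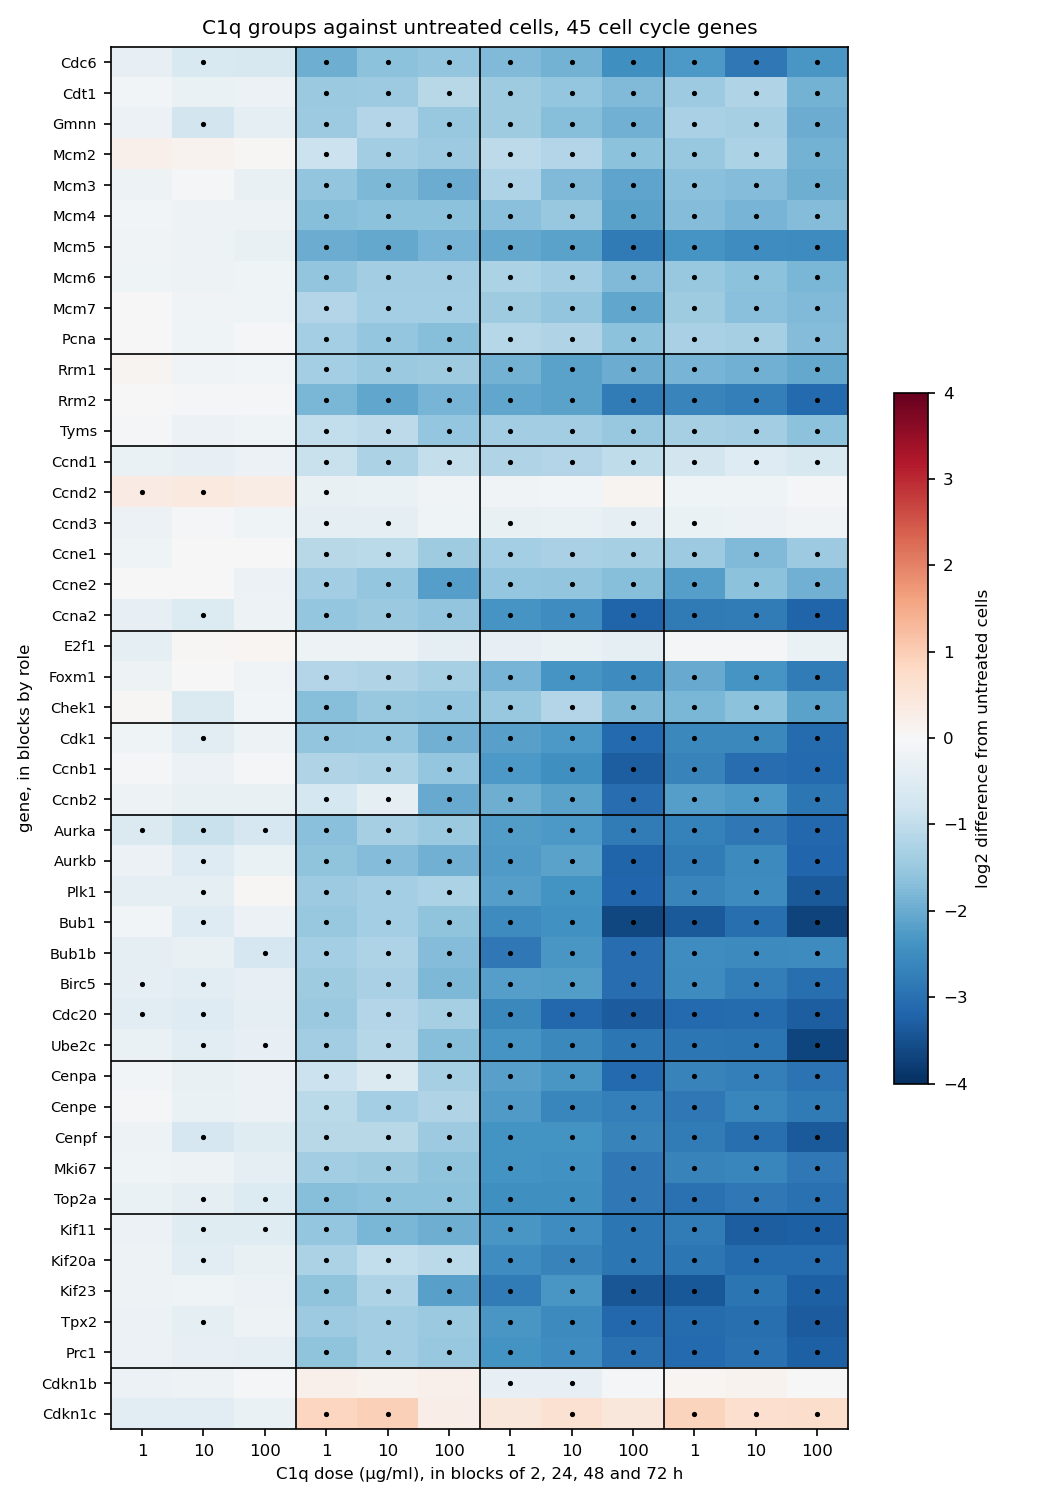
Log2 difference from untreated cells (colour) of the 45 members (rows, by role) in the 12 C1q groups (columns, by time and dose), with a dot where the difference was called. The mitotic rows deepened with time, with medians of -1.61, -3.05 and -3.16 at 100 µg/ml at 24, 48 and 72 h, while E2f1 had no dot in any column.

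**Figure D4:**
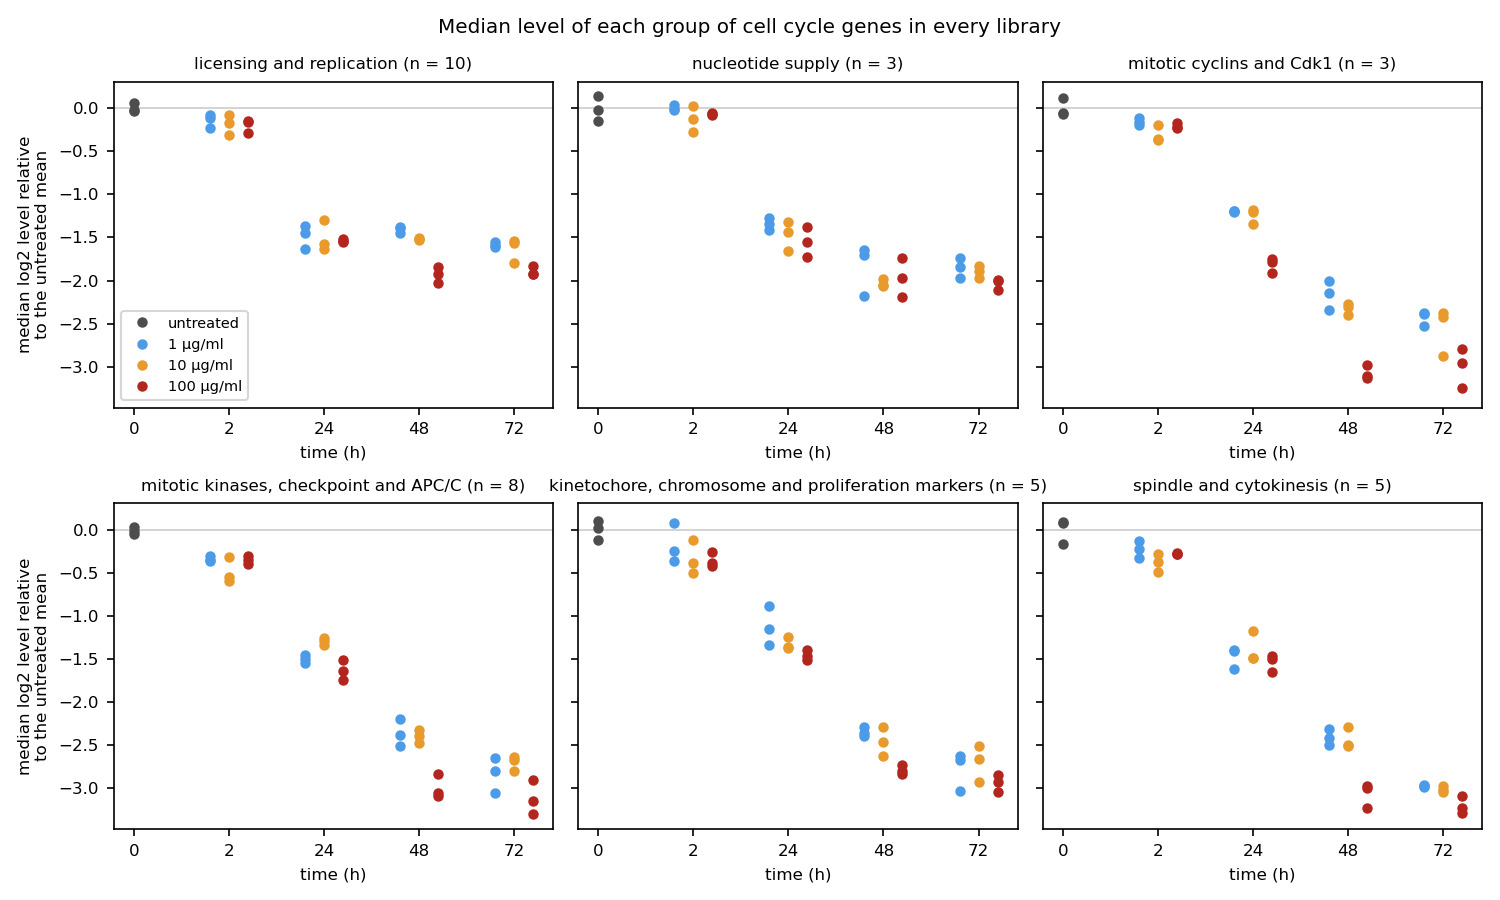
Median log2 level relative to the mean of untreated cells (vertical axis) for 6 role groups against hours of C1q (horizontal axis), with 1 point per library, coloured by dose. The 9 libraries at 72 h lay at -3.283 to -2.964 for spindle and cytokinesis and at -1.925 to -1.537 for licensing and replication. Over all 45 members, which have no panel, the 9 libraries at 72 h lay at -2.71 to -2.13 and the 9 at 2 h at -0.33 to -0.18.

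Several genes of G1 moved less than the replication and mitotic genes, or not detectably. E2f1, the gene of an activating E2F factor, was not called against untreated cells at any dose or time, with log2 differences between -0.36 and 0.08. It had 20.3, 24.5 and 24.2 CPM at 100 µg/ml and 72 h, against 35.3, 22.6 and 24.7 CPM in untreated cells, and its medians were 24.7, 28.5, 23.5, 22.6 and 24.5 CPM at 0, 2, 24, 48 and 72 h. The groups overlapped at every time. At that dose and time the difference was -0.27 ± 0.19.

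The 3 D-type cyclins, which start G1 progression with Cdk4 and Cdk6, went separate ways. Ccnd1 had 33, 37.4 and 30.5 CPM at 1 µg/ml, 26.8, 26.9 and 25.3 CPM at 10 µg/ml and 33.6, 32.5 and 32 CPM at 100 µg/ml at 24 h, against 61.3, 64.2 and 63.0 CPM in untreated cells, without overlap. It fell in all 9 groups from 24 h on, by 0.52 (10 µg/ml, 72 h) to 1.25 (10 µg/ml, 24 h) on the log2 scale, and its median was 29.5 CPM at 48 h and 41 CPM at 72 h. Ccnd2 had medians of 163, 112, 136 and 123 CPM at 2, 24, 48 and 72 h against 139 CPM untreated, and from 24 h on was called only at 1 µg/ml and 24 h (-0.30 ± 0.11), a call lost without any of 4 libraries in turn (untreated 1 and 2, and 2 and 3 of that group; adjusted p 0.0804 to 0.195). Ccnd3 had medians of 107, 97.8, 94.5 and 103 CPM at 2, 24, 48 and 72 h against 113 CPM untreated. Its 5 calls were of -0.27 to -0.36, and each was lost without untreated library 2 (adjusted p 0.057 to 0.215 over all libraries whose omission lost a call). The E-type cyclins, which with Cdk2 start S phase, fell with the replication genes, Ccne1 by 1.06 to 1.77 and Ccne2 by 1.39 to 2.20 from 24 h on.

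Of the CDK inhibitors, Cdkn1c rose in 6 of the 9 groups from 24 h on and Cdkn1b in none. Cdkn1c had 24.0, 28.9 and 20.8 CPM at 1 µg/ml, 29.4, 25.8 and 23.1 CPM at 10 µg/ml and 12.7, 19.4 and 16.7 CPM at 100 µg/ml at 24 h, against 12.4, 15.8 and 12.8 CPM in untreated cells. The 2 lower doses lay above all untreated libraries, and 100 µg/ml overlapped them. The log2 differences were 0.87 ± 0.20, 0.94 ± 0.21 and 0.27 ± 0.22 (adjusted p 0.00112, 0.000387 and 0.344 by edgeR). At 72 h Cdkn1c had 22.6, 29.8 and 23.6 CPM, 17.6, 22.8 and 24.2 CPM, and 22.3, 21.8 and 21.4 CPM at 1, 10 and 100 µg/ml, all above untreated cells, and was higher by 0.91 ± 0.21, 0.67 ± 0.21 and 0.69 ± 0.22. The calls at 10 µg/ml were lost at 72 h without untreated library 1 or 3 (adjusted p 0.0539 to 0.0638) and at 48 h (0.62 ± 0.21) without these or its own library 2 (0.0949 to 0.324). At 1 and 100 µg/ml and 48 h it was not called (0.46 ± 0.21 and 0.45 ± 0.23).

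Cdkn1b, the inhibitor best known for holding resting cells in G1, had medians of 92.1, 122, 86.4 and 109 CPM at 2, 24, 48 and 72 h, against 105 CPM in untreated cells. It was called against untreated cells at 48 h alone, where it was lower at 1 µg/ml (-0.34 ± 0.11, lost without untreated library 2 or its own library 1, adjusted p 0.0533 to 0.131) and at 10 µg/ml (-0.32 ± 0.11, lost without untreated library 2, 0.0738). Between times it rose by 0.36 ± 0.06 to 24 h, fell by 0.43 ± 0.06 to 48 h and rose by 0.32 ± 0.06 to 72 h on the log2 scale, each called by edgeR (adjusted p 4.38e-06, 7.66e-07 and 0.000234).

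The comparison of doses at the same time, which holds the hours in culture equal, found the most calls at 48 h. At 100 against 1 µg/ml, 0 members fell and 0 rose at 2 h (1.94% and 1.28% of all genes were called lower and higher). An unadjusted p under 0.05 was found for 4 members, beside 14.1% of all genes, and DESeq2 called 0 members. At 24 h 5 fell (7.21%) and 0 rose (3.77%), and at 48 h 18 fell (6.44%) and 0 rose (3.82%). At 72 h 4 fell (6.51%) and 0 rose (4.99%). At 24 and 72 h the share of the 45 members that fell was thus not far above that of all genes. Whether these shares differed was not tested. The median of the 45 members was -0.07, -0.12, -0.53 and -0.30 at 2, 24, 48 and 72 h, against -0.02, 0.03, -0.01 and 0.00 for all genes. Between 10 and 1 µg/ml no member was called at any time (0.839%, 0.0485%, 0.208% and 0% of all genes called in either direction at 2, 24, 48 and 72 h). There, 9, 7, 2 and 0 members had an unadjusted p under 0.05, beside 8%, 6.37%, 4.65% and 4.24% of all genes. DESeq2 called 0 members, while 1 member, Cenpf, was called by edgeR at 2 h without library 1 at 1 µg/ml (adjusted p 0.0468).

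Ccnb2 led the 5 members that fell at 24 h. With the library values given above, its means were 22 CPM at 100 µg/ml and 54.6 CPM at 1 µg/ml, a log2 difference of -1.30 ± 0.14 (adjusted p 2.89e-09 by edgeR). Cenpa differed by -0.48 ± 0.11, Tyms by -0.56 ± 0.14, Pcna by -0.34 ± 0.10 and Cdkn1c by -0.60 ± 0.19. Ccnb2 and Cenpa kept their calls without any of the 6 libraries, while Tyms lost its call without library 1 at 1 µg/ml (adjusted p 0.0921), Pcna without library 1 or 2 at 1 µg/ml or 1 at 100 µg/ml (0.0765 to 0.201) and Cdkn1c without those or library 3 at 100 µg/ml (0.0706 to 0.211). The count was 3 without library 1 and 8 without library 3 at 1 µg/ml. That library 3 differed from libraries 1 and 2 of its group by a chi-square per degree of freedom of 8.02 and 8.48. Other replicate pairs of the series reached at most 4.34. All 3 libraries at 100 µg/ml and library 3 at 1 µg/ml were among 9 columns whose names were spelled differently from the sample titles and were matched by their number. All 3 libraries at 10 µg/ml and 24 h were among them too. With title-spelled columns alone no library at 100 µg/ml was left at 24 h, so that this comparison gave no value.

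The 18 members that fell with the higher dose at 48 h came from both sets, 6 of the 13 replication and nucleotide supply members and 11 of the 21 mitotic members, with Ccna2. Ccnb1 had 6.83, 7.71 and 5.98 CPM at 100 µg/ml, against 12.9, 15.3 and 13 CPM at 1 µg/ml, without overlap (log2 difference -0.99 ± 0.22, adjusted p 0.00258 by edgeR). Cdk1 had 17.9, 19.5 and 17.4 CPM against 30.2, 35.1 and 38.6 CPM (-0.92 ± 0.17, adjusted p 0.000124), and Cenpa 17.3, 13.2 and 15.4 CPM against 31.6, 29.5 and 27.9 CPM (-0.96 ± 0.17, adjusted p 6.6e-05). In the replication set, Pcna had 89.9, 83.0 and 97.6 CPM against 138, 126 and 118 CPM (-0.50 ± 0.11, adjusted p 0.00101). These 4 genes, named from those called, had no library at 100 µg/ml as high as any at 1 µg/ml. The share of all genes that separated in this way was not counted. Ccnb2 (-1.11 ± 0.20), Ccna2 (-0.85 ± 0.18), Birc5 of the chromosomal passenger complex (-0.84 ± 0.18) and the spindle factor Tpx2 (-0.80 ± 0.16) also differed.

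Of the 48 h calls, 10 depended on single libraries. Calls were lost for Bub1, Cdc20, Mcm6 and Rrm2 without library 1 at 100 µg/ml, Aurkb, Cdc20, Mcm3, Mcm5, Mcm6, Mcm7 and Plk1 without library 2 at 100 µg/ml, and Aurkb, Bub1, Mcm5, Mcm6 and Mcm7 without library 3 at 100 µg/ml. At the lower dose they were lost for Cdc20, Mcm6, Mcm7, Plk1, Rrm2 and Ube2c without library 1 at 1 µg/ml, Aurkb, Bub1, Cdc20 and Mcm6 without library 2 at 1 µg/ml, and Aurkb, Bub1, Cdc20 and Mcm5 without library 3 at 1 µg/ml (adjusted p 0.0511 to 0.201 over these genes). Without library 2 at 100 µg/ml the count was 11. The first and second libraries at 1 µg/ml and 48 h were among the columns spelled differently from the sample titles, and with title-spelled columns alone, which left 1 library at 1 µg/ml, 4 members were called. The marker sums at 48 h were 610 to 656 CPM at 100 µg/ml against 691 to 765 CPM at 1 µg/ml for macrophages, 176 to 187 against 210 to 233 CPM for epithelium and 9130 to 9650 against 10400 to 11100 CPM for fibroblasts. They were 297 to 362 against 426 to 493 CPM for mesothelium, 39.5 to 61.5 against 70.5 to 78.7 CPM for endothelium and 57.8 to 68.5 against 78.4 to 82.4 CPM for mural cells. Their part in the dose difference was not tested.

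At 72 h the difference was called for Ccnb2 (-0.69 ± 0.20), Cdk1 (-0.51 ± 0.17), Ube2c (-0.78 ± 0.16) and Pcna (-0.43 ± 0.11). Ube2c had 21.8, 18.7 and 15.4 CPM at 100 µg/ml, against 30.7, 34.1 and 30.6 CPM at 1 µg/ml, and Pcna 91.7, 85.3 and 75.5 CPM against 109, 118 and 115 CPM, without overlap. Of the 4, Ube2c kept its call without any of the 6 libraries. Pcna lost it without library 3 at 100 µg/ml (adjusted p 0.0509), Ccnb2 without library 1 at 100 or 3 at 1 µg/ml (0.0549 to 0.0682) and Cdk1 without library 1 or 2 of either dose (0.058 to 0.324).

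**Figure D5:**
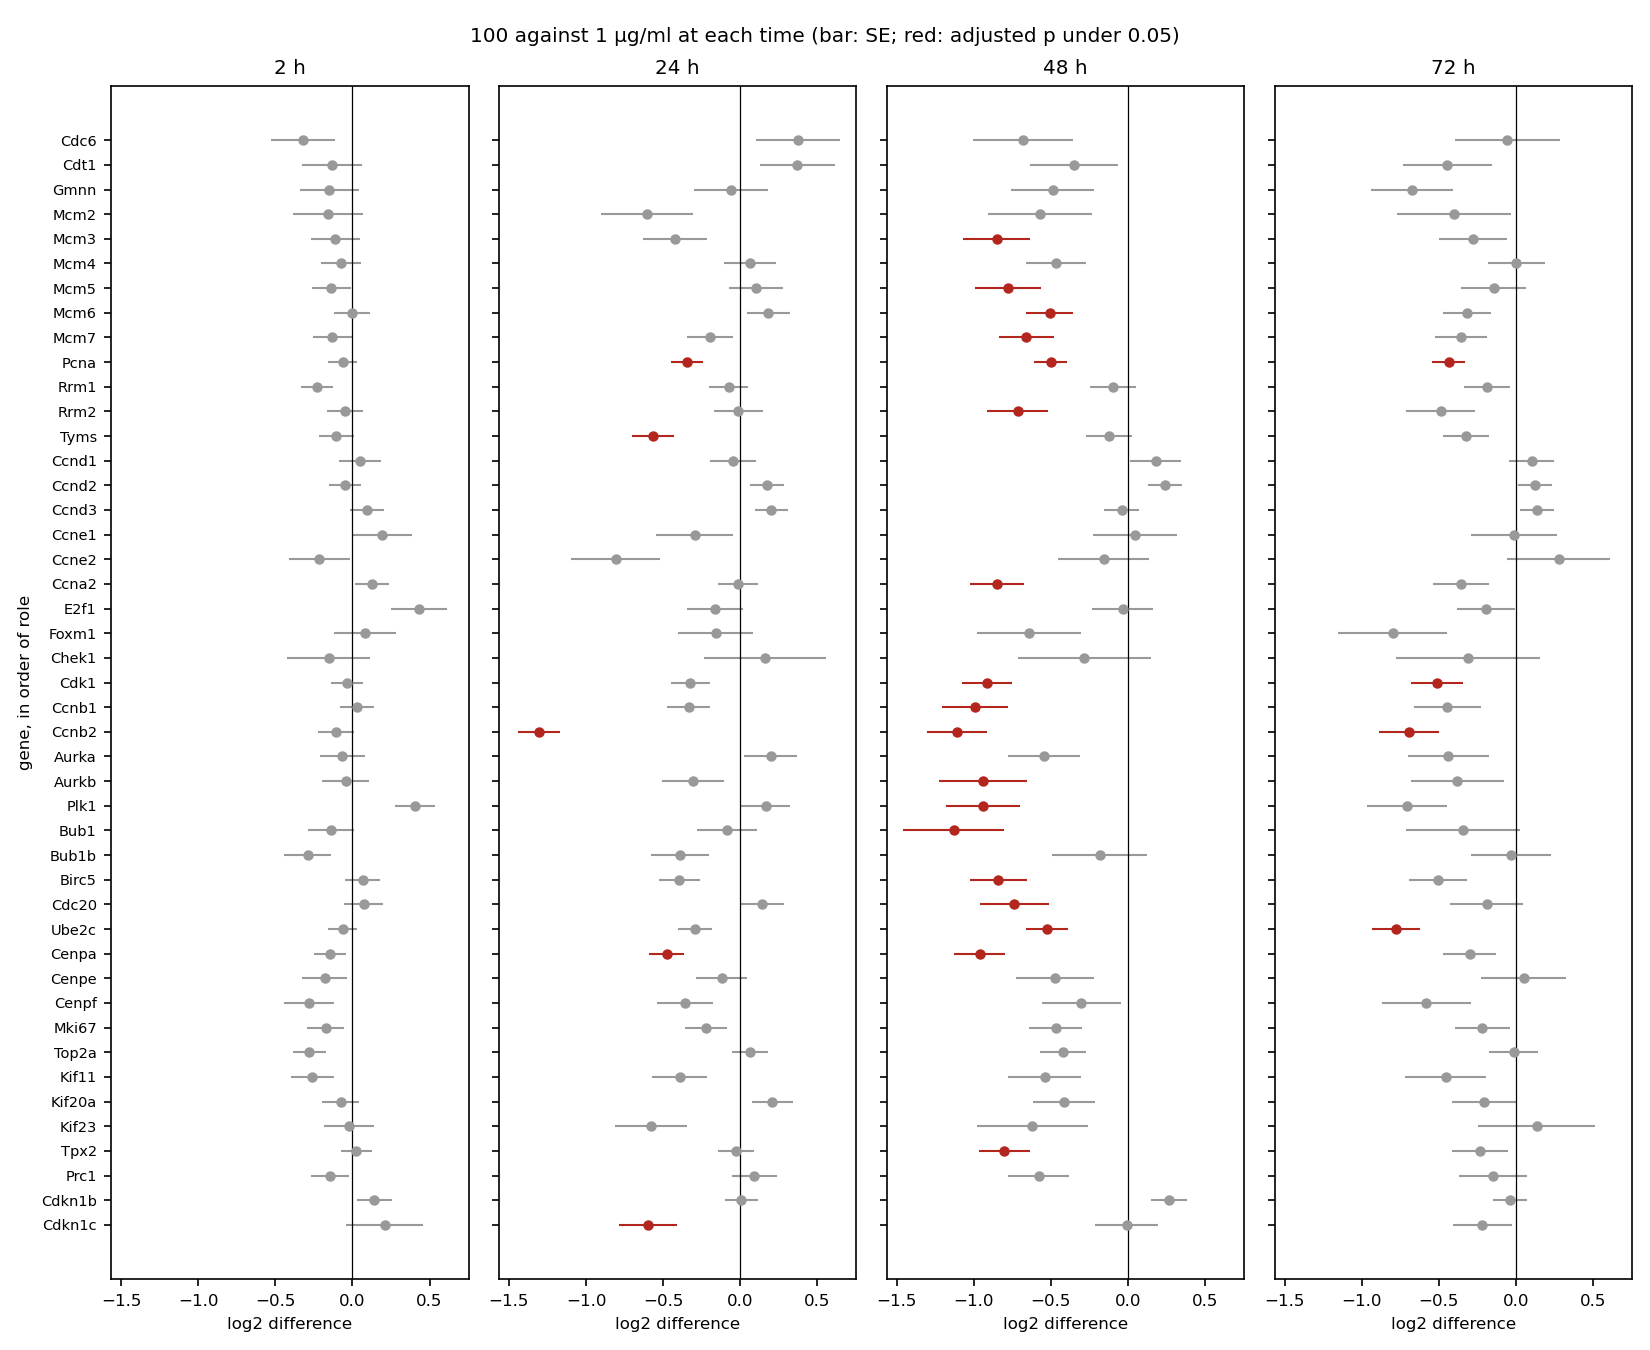
Log2 difference of 100 against 1 µg/ml (horizontal axis) for the 45 members (rows) in a panel for each of 2, 24, 48 and 72 h, with bars for the SE and red points where the difference was called. Red points numbered 0, 5, 18 and 4, all to the left of 0, with Ccnb2 at -1.30 at 24 h.

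Whether the dose difference changed with time was tested for each member with 3 degrees of freedom. It was called for 9 members (6.78% of all genes), all of them mitotic genes or Ccna2. They were Ccnb2 (adjusted p 7.15e-05), Plk1 (0.00112), Ccna2 (0.00683), Cdk1 (0.0131), Birc5 (0.0151), Tpx2 (0.0194), Ccnb1 (0.0224), Cenpa (0.0288) and Ube2c (0.0313). Ccnb2 differed between 100 and 1 µg/ml by -0.11, -1.30, -1.11 and -0.69 at 2, 24, 48 and 72 h, and Plk1 by 0.40, 0.16, -0.94 and -0.71. Plk1 had 67.0, 76.5 and 70.1 CPM at 100 µg/ml and 59.9, 48.1 and 53.0 CPM at 1 µg/ml at 2 h, and 9.98, 6.35 and 6.97 CPM against 18.8, 12.1 and 13.4 CPM at 48 h. Its libraries thus separated by dose in opposite directions at these times, although the difference at 2 h was not called alone (adjusted p 0.081). The count was 5 without library 1 at 100 µg/ml and 2 h. Calls were lost for Birc5, Ccnb1, Cenpa and Ube2c without library 1 at 100 µg/ml and 2 h, Ccnb1, Cenpa and Ube2c without library 2 at 100 µg/ml and 2 h, Ccna2, Ccnb1 and Tpx2 without library 1 at 100 µg/ml and 48 h, Cenpa without library 2 at 100 µg/ml and 48 h, Ccnb1, Cenpa and Tpx2 without library 3 at 100 µg/ml and 48 h, Ube2c without library 2 at 100 µg/ml and 72 h. They were also lost for Ube2c without library 3 at 100 µg/ml and 72 h, Birc5 and Ube2c without library 1 at 1 µg/ml and 2 h, Ccnb1 without library 2 at 1 µg/ml and 2 h, Cenpa and Ube2c without library 3 at 1 µg/ml and 2 h, Cenpa without library 1 at 1 µg/ml and 48 h, Ccnb1 without library 2 at 1 µg/ml and 48 h, Ube2c without library 2 at 1 µg/ml and 72 h (adjusted p 0.0511 to 0.121 over these genes).

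Lists of 136 further cell cycle genes, none among the 45, were counted in the same way, beside 23.3% of all genes called lower and 22.5% called higher at 100 µg/ml and 72 h. At 100 µg/ml and 72 h, 29 of 30 replication fork and polymerase genes fell (median -1.42), with Dbf4, the activating subunit of the Cdc7 kinase, at -2.70 ± 0.23, and Dna2 was the exception (-0.25, not called). All 10 genes of nucleotide and chromatin supply fell (median -1.95), led by the thymidine kinase gene Tk1 (-3.28 ± 0.17). Of 26 condensin, cohesin and kinetochore genes 25 fell (median -2.52), with Cenph at -4.39 ± 0.38 and Ndc80 at -3.65 ± 0.26, and the securin gene Pttg1 was not called (0.07). All 22 other spindle and cytokinesis genes fell (median -2.90), with Ckap2l at -3.72 ± 0.20.

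Between 24 and 48 h, where 12.1% of all genes were called lower, 6 of 30 replication fork genes fell (median -0.23), with Rfc4 of the clamp loader at -0.71 ± 0.18, and 2 of 10 supply genes, Tk1 (-0.61 ± 0.10) and Dut (-0.25 ± 0.07). Of the kinetochore list 23 of 26 fell (median -0.77), with Nuf2 at -1.42 ± 0.13, and of the other spindle genes 21 of 22 (median -1.20), with Cep55, which acts in the last step of cell separation, at -1.49 ± 0.16. The exception was Kif14 (-0.05). The difference between the lists was not tested.

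Of 16 CDKs, CDC25 phosphatases and partners, 14 fell at 100 µg/ml and 72 h, led by Melk (-3.53 ± 0.27), while Cdk7 of the CDK-activating kinase rose by 0.28 ± 0.12. Of 17 RB, E2F, DREAM and MYB genes 10 fell, among them the repressor gene E2f7 (-2.97 ± 0.41), the pocket protein gene Rbl1 (-1.65 ± 0.23) and Myc (-1.50 ± 0.31). Rbl2, the pocket protein of resting cells, rose by 0.46 ± 0.16. Of 15 inhibitor and quiescence genes 8 rose, beside 22.5% of all genes, led by Gas6 (1.86 ± 0.10), Gas1 (1.24 ± 0.11), Foxo1 (1.06 ± 0.19) and Foxo3 (1.01 ± 0.12), and 3 fell, beside 23.3% of all genes, Cdkn2d (-1.40 ± 0.15), Cdkn2c (-0.58 ± 0.13) and Ccng1 (-0.33 ± 0.08). The p53 target Cdkn1a (p21) was not called (0.07).

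Strand and overlap limit a few members. The files do not state whether counting used strand. Annotated genes on the other strand cover the starts of Mcm7 (Ap4m1), Ccnd2 (9330179D12Rik) and Prc1 (Rccd1), and a model on the same strand covers that of Cdt1 (Gm20388), so reads at those starts could belong to either gene.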

How the data were processed

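RNA of the 39 libraries was poly(A) selected and sequenced from the 5′ end, per the labels' protocols, and the authors deposited whole-number counts per gene. cutadapt 2.1.0, Bowtie2 2.4.2 and build GRCm38 are named in the submitters' processing notes; the counter, its strand setting and any collapsing of duplicates are named in none of the sources used here. Columns were matched to samples by name, 9 of them with another spelling by number, and 0 per-sample columns were left unused.

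Genes were kept with filterByExpr of edgeR 4.0.16 (min.count 10, by group), which left 14419 of 30012 genes holding 99.4% of counts. Counts were scaled by TMM (factors 0.918 to 1.1) and fitted by quasi-likelihood over all 13 groups, in R 4.3.3, and p-values were adjusted by Benjamini-Hochberg over all genes, with calls at 0.05. The 12 C1q groups were compared with untreated cells, doses and neighbouring times with each other, and the change of the dose difference with time with 3 degrees of freedom. Alternatives were DESeq2 1.42.0, other scalings, filters, thresholds and thinned counts, and leaving out each library or the row LOC118568312. SE is the log2 difference divided by the square root of F. Library totals of 1806106 to 3012518 limit precision at low levels, as for Bub1 at 72 h. Figures used matplotlib 3.10.9 in Python 3.11.15.

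All 45 members could be named. Named were, per comparison and role, the largest and smallest differences among called members, members called against the direction and those not called, and, for wider lists, up to 3 of the largest changes with mean log2 CPM of at least 3. The members and lists were chosen with earlier results of these data known. Scripts were tested on simulated data.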

Additional observations from a re-analysis of the deposited data

Results flagged for a closer look

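The difference between 100 and 1 µg/ml changed with time for 9 of the 45 members, beside 6.78% of all genes. The test ran over 2, 24, 48 and 72 h (edgeR, adjusted over all genes). The adjusted p was 7.15e-05 for Ccnb2, 0.00112 for Plk1, 0.00683 for Ccna2, 0.0131 for Cdk1 and 0.0151 for Birc5. It was 0.0194 for Tpx2, 0.0224 for Ccnb1, 0.0288 for Cenpa and 0.0313 for Ube2c. At 2, 24, 48 and 72 h the log2 differences were -0.11, -1.30, -1.11 and -0.69 for Ccnb2. For Plk1 they were 0.40, 0.16, -0.94 and -0.71. For Ube2c they were -0.06, -0.29, -0.53 and -0.78, the only course of the 9 with its lowest value at 72 h. For Cenpa they were -0.15, -0.48, -0.96 and -0.30. Ccna2, Cdk1, Birc5, Tpx2 and Ccnb1 had their lowest value at 48 h, between -0.99 (Ccnb1) and -0.80 (Tpx2). Ccnb2 had its lowest at 24 h. The calls of Ccnb2, Plk1 and Cdk1 were kept without each of the 24 libraries in turn. All libraries at 100 µg/ml and 24 h were columns matched by number. With title-spelled columns alone this test gave no value.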

How the results depend on the processing

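No paired analysis was possible because the labels give no replicate numbers, only serial titles. No member changed direction under any alternative while called. Another scaling (RLE) moved the median of all genes by at most 0.0234 on the log2 scale, and DESeq2 by at most 0.0245. Leaving out the row LOC118568312, which held 6.1% to 14.1% of the counts of a library, moved it by at most 0.0297. Of 1080 single-gene results, 1060 were on the same side of the threshold with DESeq2 and 1054 with thinned counts. Leaving out 1 library kept 8697 of 8910, with 167 calls lost and 46 gained. Against untreated cells at 2 h, 4 members were called at 1 µg/ml, 2 with no filter, 1 with DESeq2 or at an adjusted p under 0.01, 0 at a log2 difference of at least 1 and 1 to 4 without 1 library. At 10 µg/ml 17 were called, 9 under 0.01, 0 at a log2 of 1 and 12 to 16 without 1 library. At 100 µg/ml 5 were called, 3 with DESeq2 or under 0.01, 0 at a log2 of 1, 11 in a fit to these 6 libraries alone and 3 to 5 without 1 library. For 10 against 1 µg/ml at 2 h, 0 were called, 1 with no filter and 0 to 1 without 1 library. For 100 against 1 µg/ml at 24 h, 5 were called, 3 with thinned counts or under 0.01, 1 at a log2 of 1, 2 in a fit to these libraries alone and 3 to 8 without 1 library. At 48 h 18 were called, 11 under 0.01, 2 at a log2 of 1, 4 with title-spelled columns and 11 to 16 without 1 library, and at 72 h 4, 2 under 0.01 and 0 at a log2 of 1. An alternative chosen after seeing the data set 100 µg/ml against the mean of both lower doses. It called 1 member at 2 h, Plk1, which was higher (0.416 ± 0.113, adjusted p 0.0214 by edgeR), and 8 at 24 h, all lower. Members were called at 48 and 72 h too, all of them lower, with Ccnb2 at -1.005 ± 0.178 and -0.649 ± 0.172. The share of all genes called in this alternative is not given here. At a log2 of 1, 17 of 31 were called at 48 against 24 h and 0 of 11 at 72 against 48 h. The change of the dose difference with time was called for 9, 3 under 0.01 and 5 to 9 without 1 library. The causes were not tested. Genes of few counts, such as Bub1 at 72 h, are limited by depth.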

Other observations

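At 2 h and 10 µg/ml, where 5.10% of all genes were called lower and 7.64% higher than in untreated cells, wider lists were counted. Of 17 RB, E2F, DREAM and MYB genes 0 fell and 2 rose, Myc (2.06 ± 0.20) and E2f3 (0.43), as log2 differences from untreated cells called by edgeR. Of 15 inhibitor and quiescence genes 3 rose, Klf4 (1.74), Btg2 (1.5) and Btg1 (0.77), which are known as immediate early or antiproliferative genes, and 6 fell, among them Gas1 (-1.37), Cdkn2d (-1.03) and Foxo1 (-0.91). Of 16 CDKs, CDC25 phosphatases and partners 5 fell and Cdk6 rose (0.42). These genes share the untreated libraries with the members and were measured in the same libraries.

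At 48 h, 100 against 1 µg/ml, the p53 target Cdkn1a was higher (0.61), as were Gas1 (0.45) and Foxo3 (0.38), while Myc (-0.92), Cdk2 (-0.77) and Cdk4 (-0.59) were lower. Of the 26 condensin, cohesin and kinetochore genes 3 fell, among them Nuf2 (-1.18), and of the 22 other spindle genes 5 fell, beside 6.44% of all genes called lower and 3.82% called higher.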
